A study of Bos taurus with 24 samples.

Results

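The acute-phase and secreted pattern-recognition genes SAA3, PTX3, TNFAIP6, HP, LCN2 and CP were examined in cultured bovine dermal fibroblasts. They were taken by gene symbol, each had 1 row in the count tables, and they make up 6 of the 27550 rows that carry a symbol. The study used RNA-Seq to ask how fibroblasts from Holstein (dairy) and Angus (beef) heifers differ at rest and in their response to lipopolysaccharide (LPS), the endotoxin in the outer membrane of Gram-negative bacteria, which is sensed through TLR4. Cells had been grown from shoulder skin of 4 Holstein and 4 Angus heifers, frozen, revived and given LPS from Escherichia coli at 100 ng/ml, and RNA was collected before LPS (0 h) and after 2 h and 8 h of it, giving 24 samples in 6 groups of 4 animals. The 0 h samples were the untreated controls of both later hours. No untreated wells from 2 h or 8 h were among the samples, so LPS and time in culture cannot be told apart. Replicate wells of 1 culture had been pooled, so each sample stands for 1 animal at 1 hour, and all groups shared the passaging, the serum-containing medium and the insulin, transferrin and selenium supplement.

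Acute-phase proteins are secreted proteins whose amounts change in inflammation, most of them made by the liver and some also by cells at the site of infection. SAA3 is a serum amyloid A made mainly outside the liver, and PTX3 is a long pentraxin that binds microbes and complement C1q. TNFAIP6 (TSG-6) binds hyaluronan and transfers inter-alpha-inhibitor heavy chains to it, and PTX3 binds to the same matrix. HP (haptoglobin) binds free haemoglobin, LCN2 (lipocalin 2) binds the siderophores by which bacteria take up iron, and CP (ceruloplasmin) is a copper-containing ferroxidase.

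On the bovine build UMD v3.1, the row of SAA3 was at chr29:26668045-26671778 on the minus strand and overlapped no other row. The row of PTX3, at chr1:111027803-111033868 on the minus strand, lay inside that of VEPH1 on the plus strand, and reads of the pair cannot be separated without strand. TNFAIP6 was at chr2:44850892-44867293 on the minus strand, HP at chr18:39173137-39179293 on the minus strand, LCN2 at chr11:98793665-98797819 on the plus strand and CP at chr1:119896118-119943427 on the plus strand. Each row is a whole gene span with its introns, so exon and untranslated region could not be separated. Levels are given as CPM, the counts per 1000000 counts of a library after TMM scaling (trimmed mean of M-values), and are compared only within a gene, since rows differ in length. Libraries held 51014538 to 104406293 counts, and 1 CPM stood for 51 to 104.4 counts. The floor, taken as 3 counts, was 0.029 to 0.059 CPM in a library, and it covers counting error only.

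A level of 1 CPM or more was taken as expressed. TNFAIP6 reached 1 CPM in 24 of 24 samples, PTX3 in 14, SAA3 in 7 and CP in 3, while HP and LCN2 reached it in 0. CP, HP and LCN2 were thus under 1 CPM in most or all samples, and SAA3 in 17 of 24. All markers of fibroblasts (10 of 10) reached 1 CPM, with a summed level of 38139 to 124865 CPM. Of 6 neutrophil markers, 0 reached 1 CPM and the sum was 0.132 to 0.481 CPM. The hepatocyte markers summed to 0.075 to 1.13 CPM, with ALB, APOA1, AHSG and FGB under 1 CPM in every sample. Of the 5 macrophage markers CSF1R, PTPRC, AIF1 and CD163 stayed under 1 CPM, and the sum was 1.93 to 5.52 CPM. The fifth, CD68, a lysosomal protein that fibroblasts also make, was higher in Holstein at 2 h than at 0 h by 1.07 ± 0.22 on the log2 scale (FDR 3.56e-05), and the macrophage sum in Holstein went from 1.93 to 3.35 CPM at 0 h to 4.43 to 5.52 CPM at 2 h. The keratinocyte markers summed to 11.3 to 13.7 CPM in Holstein animal 1, to 1.45 CPM or less in the remaining Holstein animals and to less than 1 CPM in each Angus animal. The 4 endothelial markers summed to 0.959 to 3.5 CPM, with CDH5 and KDR under 1 CPM in every sample. Of these 4, VWF was higher in Holstein by 1.11 ± 0.35 at 2 h (FDR 0.015) and 1.31 ± 0.32 at 8 h (FDR 0.00142). The 3 adipocyte markers summed to 6.56 to 25.5 CPM, with ADIPOQ under 1 CPM in every sample. The 4 melanocyte markers summed to 1.48 to 3.48 CPM, with TYR, DCT and MLANA under 1 CPM in every sample. The part of these markers in the results below was not tested. In 4 libraries the collagen gene COL1A1 had 66.2 to 67.1 covered bases for each count, where the remaining 20 libraries had 111.8 to 119, and why they differed was not tested. These COL1A1-divergent libraries were the 0 h libraries of Angus animal 4 and of Holstein animals 2 and 4, and the 2 h library of Angus animal 3. The covered bases per count of TNFAIP6 were alike in these libraries and the rest (65 to 71.4 and 65.1 to 73.5), as were those of PTX3 (90 to 96.7 and 78.9 to 99.3).

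SAA3 went from 0 or a few counts at 0 h to several CPM at 8 h in 6 of 8 animals. In Angus it was at 0 counts in all 4 animals at 0 h. At 2 h its levels in Angus animals 1 to 4 were 0.149, 0.379, 1.94 and 0 CPM, and at 8 h they were 0.842, 4.36, 8.98 and 0.056 CPM. Animal 4 stood apart with 4 counts at 8 h, and the animals with more SAA3 at 2 h also had more at 8 h.

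In Holstein, SAA3 had 3 counts in all at 0 h. Levels in Holstein animals 1 to 4 were 0.362, 0.368, 0.131 and 0.099 CPM at 2 h and 13.5, 14.2, 6.03 and 11.9 CPM at 8 h. All 4 animals were thus under 1 CPM at 2 h and at 6.03 CPM or more at 8 h, with no overlap between any pair of hours. The group means at 8 h were 11.4 ± 3.72 CPM in Holstein and 3.56 ± 4.07 CPM in Angus (SD, n = 4). Of 8 animals, 7 had more SAA3 at 2 h than at 0 h and 8 had more at 8 h than at 2 h.

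Against the 3 counts of Holstein at 0 h, the summed SAA3 counts were 21.4 times as high at 2 h (95% counting interval 7.02 to 106) and 1077 times as high at 8 h (368 to 5225). Against a floor of 3 counts over the Angus group at 0 h, SAA3 was at least 76.6-fold higher at 2 h and at least 477-fold higher at 8 h. A change counted as past the threshold at an FDR (false discovery rate) under 0.05, a fold of 2 or more and an average above 1 CPM in the samples compared. In the edgeR likelihood-ratio test SAA3 rose from 0 h to 8 h in Holstein by 9.82 ± 0.89 on the log2 scale (SE, FDR 1.77e-68). This fitted value rests on the few counts at 0 h and depends on the prior count of the fit. From 2 h to 8 h, SAA3 rose in Holstein by 5.57 ± 0.42 (FDR 9.1e-29).

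The filter used for testing was taken from the wording of the study's methods and asks for 1 CPM or more in at least 50% of the samples compared. How the authors ran it is not settled by the sources used here, and a filter run in another way would test other members, so counts are given with it and without it. The study lists SAA3 and PTX3 as higher at 8 h than at 0 h with the breeds combined, where the filter as run here tested neither. As run here it left SAA3 untested in every comparison with both breeds combined, between the breeds at 0 h and 2 h, in the LPS comparisons in Angus and in Holstein at 2 h against 0 h. A gene that passes such a filter only through the group where it is high had to differ, which holds for SAA3 and for PTX3. With no CPM filter, SAA3 rose from 0 h to 8 h with the breeds combined (10.15 ± 1.09, FDR 3.25e-16) and from 2 h to 8 h (4.11 ± 0.82, FDR 0.00021). At 2 h against 0 h its FDR was 1.95e-06 with a log2 fold change of 6.01, but its average of 0.194 CPM was under the limit of 1 CPM. In Angus at 8 h against 0 h the FDR of SAA3 was 4e-07 by the likelihood-ratio test and 0.153 by the quasi-likelihood F test. Without Angus animal 3 the FDR was 5.18e-05, but the average of 0.93 CPM was under the limit. SAA3 is nearly identical to its paralog M-SAA3.2, and how reads of the pair were divided is uncertain. M-SAA3.2 had a mean of 0 CPM in both breeds at 0 h, a mean of 0.148 CPM in Angus at 8 h and of 1.1 CPM in Holstein at 8 h.

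**Figure D1:**
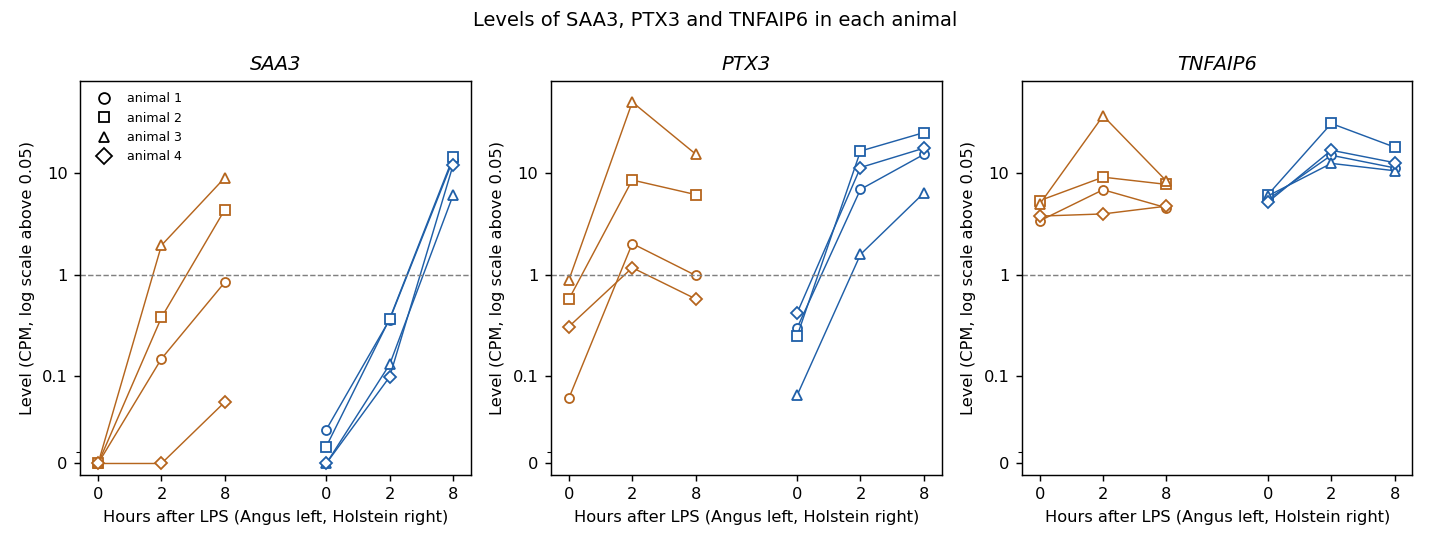
Levels of SAA3, PTX3 and TNFAIP6 in CPM (axis logarithmic above 0.05 CPM and linear below) against hours after LPS, with 1 line per animal, Angus in brown on the left and Holstein in blue on the right of each panel, and a dashed line at 1 CPM. SAA3 climbed to 6.03 to 14.2 CPM in the 4 Holstein animals at 8 h and spread from 0.056 to 8.98 CPM in Angus, and the PTX3 lines turn down after 2 h in Angus only.

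PTX3 was above 3 counts in all 24 samples. At 0 h its levels were 0.061, 0.573, 0.885 and 0.308 CPM in Angus animals 1 to 4 and 0.299, 0.249, 0.065 and 0.419 CPM in Holstein animals 1 to 4. At 2 h they were 2.02, 8.51, 49.7 and 1.17 CPM in Angus and 6.89, 16.4, 1.58 and 11.3 CPM in Holstein. Each animal was higher at 2 h than at 0 h, and in neither breed did the hours overlap.

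With the breeds combined PTX3 rose at 2 h by 5.09 ± 0.68 on the log2 scale (FDR 6.37e-09). The rise was 5.14 ± 0.67 in Holstein (FDR 1.72e-09) and 5.06 ± 1.06 in Angus (FDR 0.000916). In single animals the ratio of the 2 h level to the 0 h level ran from 3.8 (Angus animal 4) to 65.8 (Holstein animal 2). The Angus mean of 15.3 ± 23.1 CPM (SD, n = 4) at 2 h was set mostly by animal 3. Without that animal the rise in Angus was 3.63, and without the COL1A1-divergent libraries it was 2.93, still past the threshold.

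At 8 h PTX3 stood at 0.982, 6.12, 15.3 and 0.577 CPM in Angus animals 1 to 4 and at 15.2, 24.9, 6.35 and 17.5 CPM in Holstein animals 1 to 4. The Angus values at 8 h overlapped those at 0 h, and the Holstein values did not. In Holstein PTX3 rose from 0 h by 5.99 ± 0.51 (FDR 1.07e-20). The CPM filter left PTX3 out of the combined and the Angus comparisons at 8 h. With no CPM filter it rose with the breeds combined by 4.91 ± 0.62 (FDR 3.24e-09) and in Angus by 3.64 ± 0.94 (FDR 0.0305), the latter with an FDR of 0.211 in the F test, 0.212 without Angus animal 2 and 0.132 without Angus animal 3.

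TNFAIP6 was the only one of the 6 genes above 1 CPM in all samples at 0 h. It had 3.38, 5.34, 4.93 and 3.76 CPM in Angus animals 1 to 4 and 5.48, 6.1, 5.94 and 5.16 CPM in Holstein animals 1 to 4. At 2 h the levels were 6.83, 9.08, 36.4 and 3.95 CPM in Angus and 14.9, 30.6, 12.4 and 16.7 CPM in Holstein. All 8 animals were higher at 2 h than at 0 h. The hours did not overlap in Holstein, whereas in Angus animal 4, at 1.05 times its 0 h level, stayed within the range of the 0 h samples.

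TNFAIP6 rose at 2 h by 1.71 ± 0.35 on the log2 scale with the breeds combined (FDR 3.92e-05), by 1.71 ± 0.27 in Holstein (FDR 1.14e-08) and by 1.69 ± 0.60 in Angus (FDR 0.0466). The rise in Angus was 0.67 without animal 3, and it was past the threshold under only 4 of the 14 alternatives tried. At 8 h TNFAIP6 stood at 4.54, 7.71, 8.31 and 4.71 CPM in Angus and at 11.2, 17.9, 10.5 and 12.6 CPM in Holstein. The Holstein values were again apart from those at 0 h, with a rise of 1.2 ± 0.19 (FDR 1.54e-08). In Angus the change was 0.53 ± 0.27 (FDR 0.372), and with the breeds combined it was 0.94 ± 0.25 (FDR 0.00307), a fold of 1.92 that was under the limit of 2. In a fit with a replicate block for the animal, the FDR of the Angus value was 0.00112, also at less than 2-fold.

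The number of members past the threshold is given beside the share of all rows tested that passed it (the background). At 2 h with the breeds combined, 2 of 6 genes (PTX3 and TNFAIP6) were past the threshold, where the background was 2.82%. At 8 h with the breeds combined 0 of 6 were (background 1.42%), or 2 of 6 (SAA3 and PTX3) with no CPM filter (background 0.724%), and the 0 rests on the filter as run here, which left both untested. The study itself lists both among its genes higher at that hour. Within Holstein the counts were 2 of 6 at 2 h (background 3.14%) and 3 of 6 at 8 h (background 2.51%). Within Angus they were 2 of 6 at 2 h (background 2.97%) and 0 of 6 at 8 h (background 0.863%), or 2 of 6 at 8 h with no CPM filter (background 0.444%). The comparisons at 2 h and 8 h share their 0 h samples. PTX3 at 2 h, and SAA3 and PTX3 in Holstein at 8 h, passed the filter only through the LPS samples. Their calls were thus set in part by the filter, and the filtered counts are not a test against the background. In each comparison reported here with 0 of 6 members past the threshold in edgeR, the F test and DESeq2 also called 0 of the members tested. Among the members that passed the filter, the unadjusted p was under 0.05 in these only for TNFAIP6, with the breeds combined at 8 h and in the interaction term at that hour.

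**Figure D2:**
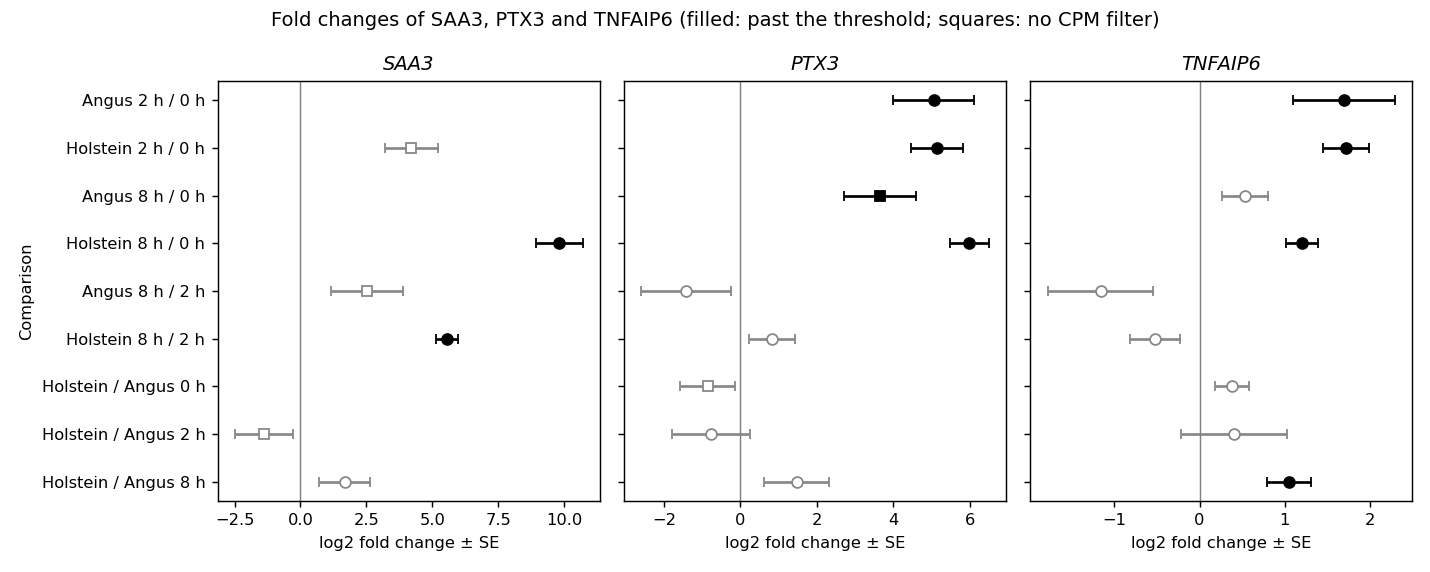
Log2 fold changes with their standard errors (horizontal axis, a scale for each gene) of SAA3, PTX3 and TNFAIP6 in 9 comparisons (vertical axis), with filled symbols past the threshold and squares from the fit with no CPM filter. SAA3 in Angus at 2 h and 8 h is not drawn because all 0 h counts were 0; PTX3 and TNFAIP6 lie near 5 and 1.7 at 2 h in both breeds.

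Between 2 h and 8 h the genes moved differently. With the breeds combined 0 of 6 were past the threshold (background 2.76%), and 1 of 6 (SAA3) with no CPM filter (background 1.4%). PTX3 changed by -0.16 ± 0.73 (FDR 0.921) and TNFAIP6 by -0.75 ± 0.4 (FDR 0.174) with the breeds combined. The comparisons within each breed were added after the levels had been seen.

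In Angus the PTX3 level at 8 h was 0.487, 0.72, 0.308 and 0.493 times that at 2 h in animals 1 to 4. In Holstein it was 2.21, 1.52, 4.02 and 1.55 times that at 2 h. All 4 Angus animals were therefore lower and all 4 Holstein animals higher at 8 h than at 2 h. In the fits without the animal as a term, neither change passed, with -1.42 ± 1.17 in Angus (FDR 0.562) and 0.82 ± 0.6 in Holstein (FDR 0.373).

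The labels tie the 3 samples of an animal together, and with the animal as a replicate block PTX3 fell from 2 h to 8 h in Angus by 1.06 ± 0.21 on the log2 scale (FDR 5.05e-06) and rose in Holstein by 1.07 ± 0.21 (FDR 7.45e-06). Past the threshold were 1 of 6 genes in Angus (background 2.71%) and 2 of 6, SAA3 and PTX3, in Holstein (background 4.12%). Without the block the numbers were 0 of 6 in Angus (background 2.36%) and 1 of 6 in Holstein (background 3.89%). In Holstein SAA3 passed the filter only through the 8 h samples, so its call was set in part by the filter. The difference between the breeds was tested as an interaction. Without the block the interaction of PTX3 was 2.24 ± 1.43 (FDR 1) and 0 of 6 genes passed (background 0.286%). With the replicate block it was 2.14 ± 0.33 (FDR 6.53e-08), and the block with the F test gave an FDR of 0.00698. PTX3 was the 1 of 6 genes called in the blocked fit (background 0.956%). Without the COL1A1-divergent libraries, among them Angus animal 3 at 2 h, the interaction without a block was 0.23. That fit kept the 8 h library of Angus animal 3 without its 2 h library. With a whole animal left out, the interaction without a block ran from 1.41 to 2.47.

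SAA3 was higher at 8 h than at 2 h in all animals of both breeds, by 37.3 to 120 times in Holstein and by 4.62 to 11.5 times in the 3 Angus animals with counts at 2 h. In Angus the change from 2 h was 2.53 ± 1.37 with no CPM filter (FDR 0.411), and 2.77 ± 0.31 with the replicate block (FDR 6.56e-17), where SAA3 and PTX3 were past the threshold (background 1.4%). The interaction of breed and hour for SAA3 between 2 h and 8 h, with no CPM filter, was 3.05 ± 1.55 (FDR 0.907). With the replicate block added it was 2.86 ± 0.41 (FDR 8.68e-09), and 2 of 6 genes, SAA3 and PTX3, were past the threshold (background 0.467%). TNFAIP6 was lower at 8 h than at 2 h in all 4 Holstein animals (0.583 to 0.845 times) and in 3 of 4 Angus animals, and its interaction was 0.64 ± 0.74 (FDR 1).

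**Figure D3:**
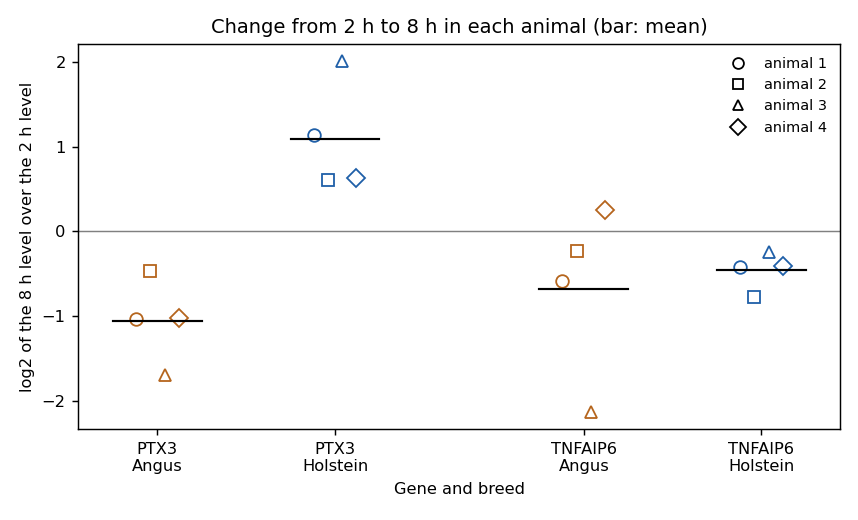
Log2 ratio of the 8 h level to the 2 h level (vertical axis) of PTX3 and TNFAIP6 in each animal, by breed (horizontal axis), with a bar at the mean of 4 animals. The PTX3 points of the 4 Angus animals lie below 0 and those of the 4 Holstein animals above it, and the TNFAIP6 points of the breeds overlap.

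Between the breeds at the same hour, TNFAIP6 at 8 h was the 1 member past the threshold. At 0 h 0 of 6 were past the threshold (background 3.81%), with TNFAIP6 at 0.38 ± 0.2 (Holstein against Angus, FDR 0.188). PTX3 at 0 h, tested with no CPM filter, gave -0.86 with an FDR of 0.573. At 2 h 0 of 6 were past it (background 4.44%), with -0.77 ± 1.02 for PTX3 (FDR 0.645) and 0.40 ± 0.62 for TNFAIP6 (FDR 0.7). SAA3 at 2 h, with no CPM filter, gave -1.37 ± 1.1 (FDR 0.516). Without Angus animal 3 SAA3 was at 0.43 and the PTX3 value at 2 h was 1.21, in the other direction, and TNFAIP6 was 1.49 and past the threshold (FDR 0.000996).

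At 8 h 1 of 6 genes was past the threshold (background 3.24%). TNFAIP6 was higher in Holstein by 1.05 ± 0.26 on the log2 scale (FDR 0.00213), with means of 13 ± 3.34 CPM in Holstein and 6.32 ± 1.97 CPM in Angus (SD, n = 4). The lowest Holstein animal, at 10.5 CPM, was above the highest Angus animal, at 8.31 CPM. The fold was close to the limit of 2, and without Angus animal 1, Angus animal 4 or Holstein animal 2, or with scaling by total counts only, it was under 2 (log2 0.86 to 1.2 over all alternatives). PTX3 was at 1.47 ± 0.85 (FDR 0.246) and SAA3 at 1.68 ± 0.96 (FDR 0.245), and Angus animal 3 overlapped the Holstein range in both. Without that animal PTX3 was at 2.63 (FDR 0.00948) and SAA3 at 2.69 (FDR 0.0401), both past the threshold. In these bulk samples, fewer responding cells and less RNA per cell cannot be told apart.

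The difference between the breeds in the response to LPS was tested as an interaction term between both factors. At 2 h this term was 0.07 ± 1.36 for PTX3 and 0.03 ± 0.71 for TNFAIP6 (FDR 1 for both), and 0 of 6 genes passed (background 0.278%). Without the COL1A1-divergent libraries it was 2.69 for PTX3 and 1.16 for TNFAIP6, and under each alternative tried it stayed short of the threshold. At 8 h 0 of 6 passed (background 0.0982%), with 0.66 ± 0.33 for TNFAIP6 (edgeR FDR 1). PTX3 at 8 h, with no CPM filter, was at 2.32 ± 1.16 (FDR 1). With the replicate block and no CPM filter it was 2.90 ± 0.56 (FDR 0.000471) and the 1 of 6 genes past the threshold (background 0.248%), whereas the block with the F test gave an FDR of 0.109. For SAA3, with no CPM filter, the term was -4.36 at 2 h (FDR 0.881) and -1.38 at 8 h (FDR 1), values that rest on 0 counts in Angus at 0 h and so depend on the prior count of the fit. In single animals the PTX3 level at 8 h was 1.87 to 17.3 times that at 0 h in Angus and 41.9 to 100 times in Holstein.

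CP had a median of 0.635 CPM over the 24 samples, and its group means did not rise with LPS. At 0 h it was at 0.774, 0.893, 0.68 and 0.664 CPM in Angus animals 1 to 4 and at 0.749, 1.79, 0.556 and 0.595 CPM in Holstein animals 1 to 4. At 8 h it was at 0.536, 0.415, 0.408 and 0.605 CPM in Angus and at 0.479, 1.23, 0.523 and 0.5 CPM in Holstein. Holstein animal 2 was above every other sample at each hour, with 1.52 CPM at 2 h, and it gave the 3 samples that reached 1 CPM. CP was lower at 8 h than at 0 h in 8 of 8 animals, with no overlap of the hours in Angus. The CPM filter left CP untested, and with no CPM filter the change was -0.52 (FDR 0.35) with the breeds combined and -0.63 (FDR 0.279) in Angus. With the replicate block the combined change had an FDR of 0.00439, at less than 2-fold and an average under 1 CPM.

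The counts of CP came largely from 1 place in its row of 47310 bases. A median of 77% of the counts of CP covered the single deepest base (range 59.3% to 91.9% over samples). The median over 15172 rows with a symbol was 7.7%, and 485 of them were at or above CP. The corresponding medians were 9.5% for TNFAIP6, 10.7% for PTX3 and 18.9% for SAA3. What the reads at that base come from was not tested, and the level of CP is therefore given as a level of its row.

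LCN2 was above the floor of 3 counts in 0 of 24 samples, and HP was above it in 6. HP had 0 to 6 counts per sample, 56 in all 24, with a highest level of 0.078 CPM and 6 samples at 0. It was above 3 counts in 6 samples, which lay in both breeds and at all 3 hours. With no CPM filter HP was fitted in 15 comparisons and passed the threshold in 0 by the edgeR likelihood-ratio test (lowest FDR 0.182, lowest unadjusted p 0.0265). LCN2 had 0 to 3 counts per sample, 11 in all 24, and 16 samples at 0. In all 4 Angus animals at 8 h it was at 0, and its highest value was 3 counts (0.03 CPM) in Holstein animal 4 at 8 h. A difference between hours or breeds was not detectable for either gene at this depth.

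**Figure D4:**
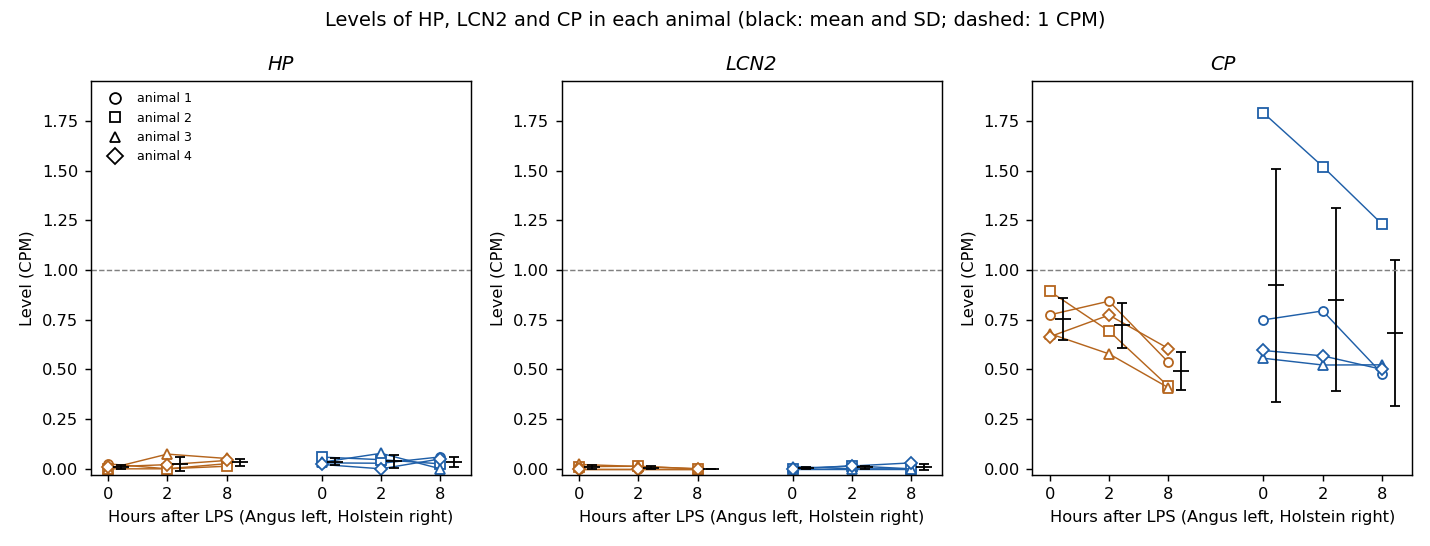
Levels of HP, LCN2 and CP in CPM on a linear axis against hours after LPS, with 1 line per animal, Angus in brown and Holstein in blue, black bars for the mean and SD of 4 animals, and a dashed line at 1 CPM. HP and LCN2 lie at or under 0.078 CPM, and CP is above 1 CPM only in Holstein animal 2.

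**Figure D5:**
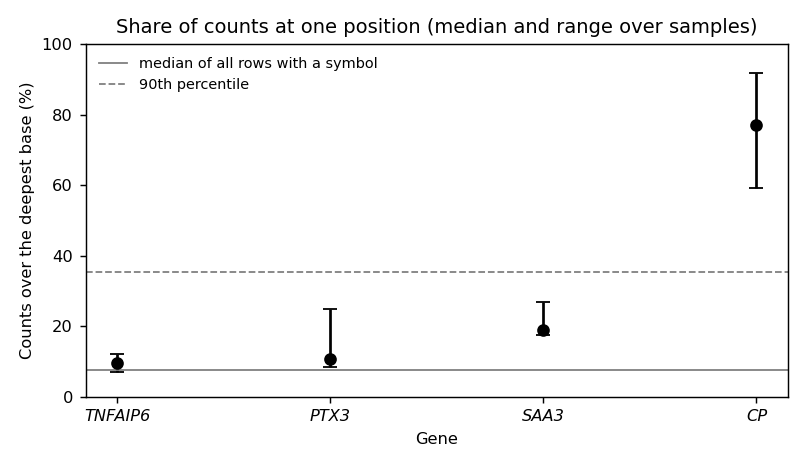
Share of the counts of a gene that cover its deepest base (%, vertical axis) for TNFAIP6, PTX3, SAA3 and CP, as the median and range over samples with 20 or more counts, with lines at the median and the 90th percentile of all rows with a symbol. CP lies at 77% and the other genes at 9.5% to 18.9%.

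Genes related to the members were described from 5 lists. Of 29 other acute-phase plasma proteins, 27 had a row and 0 passed the CPM filter in any comparison. The highest levels among them were 1.78 CPM for M-SAA3.2 and 1.04 CPM for TTR, a carrier of thyroid hormone and retinol-binding protein. Of 31 other secreted pattern-recognition and antimicrobial proteins, 7 were tested, and the rest had no row or fell under the CPM filter. Of those tested, 0 passed for LPS at 2 h or 8 h with the breeds combined, where 2.82% and 1.42% of all rows passed. The median log2 fold change of these 7 was 0.05 at 2 h and -0.15 at 8 h. These values do not cover the untested genes of the list. Among those, CHI3L1 was higher at 8 h than at 0 h in 7 of 8 animals and CRP in 2 of 8. The means of CHI3L1 went from 0.003 to 0.348 CPM in Angus and from 0.006 to 0.922 CPM in Holstein. The 1 member of that list that differed between the breeds was COLEC12, a scavenger receptor collectin, lower in Holstein by 2.37 ± 0.35 at 0 h, 2.49 ± 0.35 at 2 h and 2.19 ± 0.35 at 8 h on the log2 scale. It was 1 of 7 tested at each hour, where 3.81%, 4.44% and 3.24% of all rows passed.

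Of 19 hyaluronan matrix partners of TNFAIP6 and PTX3, 11 were tested with the breeds combined. At each hour 1 was past the threshold, with a rise, where 2.82% of all rows passed in either direction at 2 h and 1.42% at 8 h. This was HAS2, a hyaluronan synthase, which rose by 4.24 ± 0.41 at 2 h (FDR 6.96e-18) and 3.4 ± 0.34 at 8 h (FDR 2.17e-17), with higher levels in 8 of 8 animals at both hours. Its 0 h means were 0.959 CPM in Angus and 0.476 CPM in Holstein. It passed the filter mainly through the LPS samples, so its calls rest in part on the filter. In Holstein HAS1, another hyaluronan synthase, was also past the threshold at 2 h (2.60 ± 0.38) and fell from 2 h to 8 h by 3.33 ± 0.44. HAS1 was higher at 2 h in 8 of 8 animals, with Angus means of 0.348 CPM at 0 h and 1.19 CPM at 2 h. CD44, a hyaluronan receptor, was past the threshold in Holstein at 8 h (1.01 ± 0.15). With the breeds combined CD44 rose at less than 2-fold, by 0.71 at 2 h (FDR 4.86e-11) and 0.86 at 8 h (FDR 2.41e-12). CD44 was higher in 8 of 8 animals at both hours. HAS2 fell from 2 h to 8 h in Angus by 1.51 ± 0.50 (FDR 0.0305). Between the breeds HAS1 was higher in Holstein at 2 h (1.85 ± 0.35, FDR 1.77e-05), while HMMR, a hyaluronan-binding protein of dividing cells, was at -1.25 ± 0.28 at 0 h (FDR 0.000392) and -1.08 ± 0.28 at 2 h (FDR 0.002), lower in Holstein. HMMR was 1 of 10 tested at 0 h, and both were called among 12 tested at 2 h, where 3.81% and 4.44% of all rows passed. The medians over the 11 genes were 0.14 at 2 h and 0.12 at 8 h. At less than 2-fold, TMEM2 rose by 0.68 at 2 h (FDR 0.000101) and 0.58 at 8 h (FDR 0.000319) with the breeds combined. HYAL2 rose by 0.42 at 2 h (FDR 0.000102). Each was higher in 8 of 8 animals at these hours, and 0 genes of the list were past the threshold in the lower direction. Of 22 genes of iron, copper and haem handling, 14 were tested and 1, HMOX1, the inducible haem oxygenase, rose at 2 h (1.37 ± 0.34, FDR 0.000932), where 2.82% of all rows passed, and it fell from 2 h to 8 h by 1.78 ± 0.33 (FDR 4.98e-06). HMOX1 was lower in Holstein at each hour, with -1.29 ± 0.18 at 0 h, -1.42 ± 0.18 at 2 h and -1.19 ± 0.18 at 8 h. It was 1 of 14 tested at each hour, where 3.81%, 4.44% and 3.24% of all rows passed.

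Among 18 inducers of acute-phase genes, 12 were tested at 2 h with the breeds combined and 5 rose, where 2.82% of all rows passed in either direction. These were IL6 (6.46 ± 0.58), LIF (4.64 ± 0.56), NFKBIZ (3.55 ± 0.33), NFKB1 (1.84 ± 0.19) and CEBPD (1.04 ± 0.26), which are cytokines of the IL6 family and transcriptional regulators of acute-phase genes. At 8 h 4 of 13 rose, where 1.42% of all rows passed, IL6 by 6.96 ± 0.48, NFKBIZ by 1.7 ± 0.22, NFKB1 by 1.19 ± 0.17 and CEBPD by 1.15 ± 0.27. Their medians over the tested genes were 0.40 at 2 h and 0.59 at 8 h, where all rows had medians of -0.004 and -0.007. From 2 h to 8 h within Holstein IL6 rose by 2.04 ± 0.41 (FDR 3.41e-05), and within Angus it was at -0.50 ± 1.04 (FDR 0.875). The interaction of breed and hour between 2 h and 8 h called 0 of 14 inducers tested, so a breed difference in this change of IL6 was not called. In Holstein TNF, an early inflammatory cytokine, rose at 2 h by 6.77 ± 0.73 from a mean of 0.03 CPM. IL1A, a cytokine of the interleukin 1 family, rose in Holstein at 8 h by 2.76 ± 0.66 (FDR 0.00111). With the breeds combined at 2 h, the CPM filter left both genes untested. Both were higher at 2 h than at 0 h in 8 of 8 animals. Their Angus means went from 0.011 to 0.451 CPM for TNF and from 0.262 to 2.92 CPM for IL1A. From 2 h to 8 h with the breeds combined NFKBIZ fell by 1.85 ± 0.36 and LIF by 3.32 ± 0.64, and within Holstein TNF fell by 5.29 ± 0.54. TNF in Holstein passed the filter only through the 2 h samples, as its levels at 0 h and 8 h were 0.112 CPM or less. IL6 had 0 h means of 0.559 CPM in Angus and 0.421 CPM in Holstein, and IL1A 0.337 CPM in Holstein. They passed mainly through the LPS samples. The calls of these genes were thus set in part by the filter, and the counts of this list are not a test against the background.

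Between the breeds, 4 inducers were higher in Holstein and 0 lower, with 1 of 12 tested at 0 h, 3 of 14 at 2 h and 3 of 15 at 8 h, where 3.81%, 4.44% and 3.24% of all rows passed. LIF was higher by 2.02 ± 0.58 at 2 h (FDR 0.00825) and 2.42 ± 0.56 at 8 h (FDR 0.00118), with no overlap of the breeds at either hour. TNF was higher by 2.79 ± 0.88 at 2 h (FDR 0.0205), with overlap of the breeds, and NFKBIZ by 1.01 ± 0.20 at 8 h (FDR 4.44e-05). The Angus mean of TNF at 2 h was 0.451 CPM, so TNF passed the filter mainly through Holstein. TLR4, the receptor for LPS, was higher in Holstein by 1.59 ± 0.50 at 0 h (FDR 0.0209), 2.01 ± 0.41 at 2 h (FDR 9.66e-05) and 1.33 ± 0.36 at 8 h (FDR 0.00457). The breeds overlapped in TLR4 at 0 h (Angus up to 2.72 CPM, Holstein from 2.61 CPM) and were apart at 2 h and 8 h.

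The rows most like each responding gene were found by the Pearson correlation of log2(CPM + 1) over the 24 samples, among 13597 rows with a symbol. Samples of 1 animal are not independent, and the values are a description. For SAA3 they were LOC100848019 (r = 0.966), SOD2, the mitochondrial superoxide dismutase (0.957), and RTP4 (0.948). The rows of LOC100848019 and SOD2 are neighbours on chromosome 9. For PTX3 they were IFNAR2, a subunit of the type I interferon receptor (0.947), GFPT2 (0.932), which makes a precursor of hyaluronan and other glycans, and SLC39A14, a zinc and iron transporter (0.918). For TNFAIP6 they were GPC6, a glypican (0.95), MAP3K8, a kinase of the TLR pathway (0.935), and BLZF1 (0.929). Among the members, PTX3 and TNFAIP6 had r = 0.864, PTX3 and SAA3 0.713, and SAA3 and TNFAIP6 0.41.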

How the data were processed

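RNA-Seq tables of 24 samples (6 groups of 4 by breed and hour, taken from the sample titles) were analysed. Per the study's methods and processing notes, the authors removed low-quality reads, base calls having come from CASAVA 1.7, and aligned the rest to UMD v3.1 with NextGENe 2.3.4. The read counts the authors deposited are raw whole-number counts per row, where a row is a gene span or an interval without a symbol. The mean and maximum coverage that the authors deposited for each row was used only to check how reads lay in it. The summed counts were 1.5 to 1.712 times the matched reads, so a read could count in more than 1 row. Of 59846 rows, 32296 had no symbol (12.28% to 20.53% of counts); they were kept in library sizes and tests, as targets of the authors' counting.

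Counts were tested with edgeR 4.0.16 (R 4.3.3) by a likelihood-ratio test after TMM scaling, on the samples compared, over rows with 1 CPM or more in at least 50% of them, with Benjamini-Hochberg adjustment over all such rows (FDR). The test and the filter follow the wording of the study's methods, though the authors may have run the filter in another way, and TMM was added. Alternatives were the quasi-likelihood F test, DESeq2 1.42.0, other scaling and filters, the animal as a replicate block and leaving out libraries. The fits were also run on simulated counts, drawn with the same dispersion for every row and no animal effect. That setting differs from these data and does not check the fits with the animal as a block against those without. The 3 samples of an animal deviated from their group means together, and the labels pair them by number. The mean r was 0.658 between 0 h and 2 h and 0.619 between 0 h and 8 h (lowest 0.533). The means between animals, -0.218 and -0.205, follow from centring each group of 4 on its mean and are no separate contrast. No 2 libraries of a group were duplicates (chi-square per degree of freedom 33 to 461.2). Group values are means with SD over 4 animals. Genes were named by rule: all 6 members, and up to 3 genes of each list past the threshold with LPS in all 8 animals or between breeds that did not overlap. Each inducer past the threshold was named, and for each member expressed in 4 or more samples the 3 most correlated rows. CD44, CD68, VWF, TMEM2, HYAL2, CHI3L1 and CRP were named after their values were seen. The members and lists were chosen with earlier results of these data known. Sequences were not used here, as no genome of this build was at hand.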

Additional observations from a re-analysis of the deposited data

Results flagged for a closer look

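In groups of 4, a sample was flagged when its gap to the nearest other sample took a share of the range of its group above Dixon's 95% critical value. This held in 4 of 22 groups of a member with 10 or more counts in its highest sample, where chance flags about 1 in 20 groups. PTX3 in Angus at 2 h was flagged for animal 3 (49.7 CPM against 1.17 to 8.51, gap share 0.849), and TNFAIP6 for the same library (36.4 CPM against 3.95 to 9.08, gap share 0.842). That library is 1 of the 4 COL1A1-divergent libraries, and the part of this in both values was not tested. SAA3 was also highest there among the 2 h samples, at 1.94 CPM. CP was flagged for Holstein animal 2 at 0 h (1.79 CPM against 0.556 to 0.749, gap share 0.844) and at 8 h (1.23 CPM against 0.479 to 0.523, gap share 0.941).

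The change of PTX3 from 2 h to 8 h was flagged because it had opposite directions in the breeds, lower in 4 of 4 Angus animals and higher in 4 of 4 Holstein animals. The interaction was 2.24 on the log2 scale without a block (FDR 1), 2.14 with the replicate block (FDR 6.53e-08) and 2.13 with the block and no CPM filter (FDR 4.25e-08). With the block and no CPM filter, the interaction of SAA3 from 2 h to 8 h was 2.86 (FDR 8.68e-09) and that of PTX3 from 0 h to 8 h was 2.90 (FDR 0.000471). These comparisons between 2 h and 8 h were chosen after the data had been seen.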

How the results depend on the processing

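Depth limits what can be said of HP, LCN2 and, at 0 h, SAA3, whose counts were within a few reads of the floor. All changes of PTX3 at 2 h, and of SAA3, PTX3 and TNFAIP6 in Holstein, that were past the threshold without a block kept direction and call under every alternative tried. The cause of each shift below was not tested.

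At 8 h against 0 h with the breeds combined, 0 of 6 members were past the threshold, but 2 were with no CPM filter, 1 with filterByExpr, total counts only, gene symbol rows only or without the COL1A1-divergent libraries, and 0 to 1 with an animal left out. At 8 h against 2 h combined the 0 became 1 with no CPM filter, filterByExpr or gene symbol rows only, and 0 to 1 with an animal left out (1 without Angus animal 1 or 4). In Angus at 2 h the 2 members became 1 (PTX3) with the F test, DESeq2, total counts only, no CPM filter, filterByExpr, the replicate block with the F test or without the COL1A1-divergent libraries, and 1 to 2 with an animal left out. In Angus at 8 h the 0 became 2 with no CPM filter, 1 with filterByExpr or gene symbol rows only, and 0 to 1 with an animal left out (1, PTX3, without animal 4). Between the breeds at 2 h the 0 became 1 (TNFAIP6) without the COL1A1-divergent libraries and 0 to 1 with an animal left out. At 8 h the 1 became 0 with total counts only and 0 to 3 with an animal left out.

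From 2 h to 8 h the replicate block, with or without the F test, gave 2 members in place of 1 in Holstein, 1 in place of 0 in Angus and 1 in place of 0 for the interaction. The replicate block by itself changed no other call of a member that had passed the CPM filter. PTX3 from 2 h to 8 h with the breeds combined changed direction with total counts only (0.04), the replicate block (0.03), the block with the F test (0.1) and without the COL1A1-divergent libraries (0.67), and ran from -0.38 to 0.58 with an animal left out. Without those libraries it was 0.57 in Angus, the breed difference at 2 h was 1.21 for PTX3 and 0.43 for SAA3, and the interaction of TNFAIP6 between 2 h and 8 h was -0.47. In the fits of 8 h against 2 h, this left out the 2 h library of Angus animal 3 and kept its 8 h library. With an animal left out, the breed difference at 2 h ran from -1.22 to 1.21 for PTX3 and -1.79 to 0.43 for SAA3, the interaction at 2 h from -0.4 to 1.51 for PTX3 and -0.28 to 1.04 for TNFAIP6, and that of TNFAIP6 between 2 h and 8 h from -0.31 to 0.91.

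The background counts moved by more than 1.5 times as follows. With gene symbol rows only, an alternative chosen after seeing the data, 568 rows became 369 (2 h combined), 560 became 367 (8 h against 2 h combined), 638 became 408 (Holstein 2 h), 799 became 523 and 482 became 307 (8 h against 2 h in Holstein and Angus), 56 became 28 (interaction, 2 h) and 58 became 35 (interaction, 8 h against 2 h). With the F test 178 became 90 (Angus 8 h), 56 became 16, 20 became 0 (interaction, 8 h, with 756 rows at an unadjusted p under 0.05 and 25 past the threshold in DESeq2) and 58 became 26. With the replicate block 56 became 126, 20 became 100 and 58 became 194, or 152 with the F test. Without the COL1A1-divergent libraries 776 became 259 (breeds at 0 h) and 20 became 6. With an animal left out 776 fell as low as 515, 670 (breeds at 8 h) ran from 446 to 1127, 56 fell as low as 33, 20 ran from 2 to 62 and 58 rose as high as 90.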
